A study of Mus musculus with 12 samples.

Results

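The genes described here handle urate: 10 genes of urate transport, its supply and its removal, chosen by name from the 46882 gene names of a kidney count table. The members are Slc22a12, Slc2a9, Slc22a13, Abcg2, Abcc4, Slc17a1, Slc17a3, Pdzk1, Xdh and Uox. All 10 had a row in the table, and 9 had enough counts to be tested, Uox being the exception. RNA was sequenced from the whole kidney of mice of the strain C57BL/6 at 6 to 8 weeks of age, with 6 wild-type animals (WT: 573, 590, 601, 776, 777 and 778) and 6 A1cf -/- animals (A1cf KO: 574, 584, 588, 591, 602 and 780). The study compared the kidney transcriptome with and without A1cf, which encodes an RNA-binding protein. How the A1cf allele was made is not given in the sources used here. Whole kidney mixes all segments, so fewer cells of a type and less RNA per cell cannot be told apart in any value below.

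Urate is formed in purine breakdown. Xanthine dehydrogenase makes it from hypoxanthine and xanthine, and in mice uricase, a peroxisomal enzyme known mainly from liver, breaks it down further towards allantoin. In the kidney, urate is filtered and then both reabsorbed and secreted, mostly by cells of the proximal tubule. Reabsorption runs through an apical anion exchanger (URAT1, the product of Slc22a12) and a facilitated carrier (GLUT9, the product of Slc2a9), while ATP-driven pumps and voltage-driven carriers export it.

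A1cf was at 45.2 to 65.7 CPM in WT, where CPM is the read count scaled to library size, and all 6 A1cf KO libraries were far lower, from 2.95 to 6.11 CPM (log2 fold change -3.72, SE 0.15, edgeR adjusted p = 6.0e-09). Libraries held 26671705 to 52899139 counts. The animal numbers fall into 2 series, 573 to 602 (3 WT, 5 A1cf KO) and 776 to 780 (3 WT, 1 A1cf KO). The labels do not say what the numbers stand for, and values within a series are given for each tested member. The 14 markers fixed for the proximal tubule were all tested, and their summed level ran from 15094 to 21575 CPM across WT and from 16533 to 21715 CPM across A1cf KO. No proximal tubule marker passed the threshold. At an unadjusted p under 0.05 by edgeR there were 0, beside 10.4% of all genes tested. DESeq2 called 0, beside 1.01%.

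The members stood at very different levels in kidney. Compared per kilobase of exon over all 12 libraries, Slc22a12 had the highest level at 695 ± 50.1 CPM per kb (SD, n = 12), which placed it 46th among the 16910 genes tested. Slc17a1 followed at 371 ± 39.9, Slc17a3 at 142 ± 19.4, Pdzk1 at 113 ± 24.8, Abcg2 at 64.1 ± 3.72 and Slc22a13 at 46.3 ± 10.9 CPM per kb. Abcc4 (15.8 ± 2.82), Xdh (8.83 ± 1.06) and Slc2a9 (7.31 ± 0.67 CPM per kb) were lower, and Slc2a9 ranked 5498th. Slc22a12 made up 42.5 to 52.0% of the summed CPM per kb of the 9 tested members, and Slc2a9 made up 0.44 to 0.67%.

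Some neighbours in this order were not separated by the spread between libraries. The ranges of Slc17a3 and Pdzk1 overlapped, with Slc17a3 higher in 11 of 12 libraries. Abcg2 and Slc22a13 likewise overlapped in range, with Abcg2 higher in 11 of 12 libraries. Xdh and Slc2a9 were the closest pair in order at the low end, with Xdh higher in 9 of 12. The ranges of Abcc4 and Xdh overlapped across libraries, though Abcc4 was higher in each of the 12. The other neighbours had ranges that did not overlap.

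**Figure D1:**
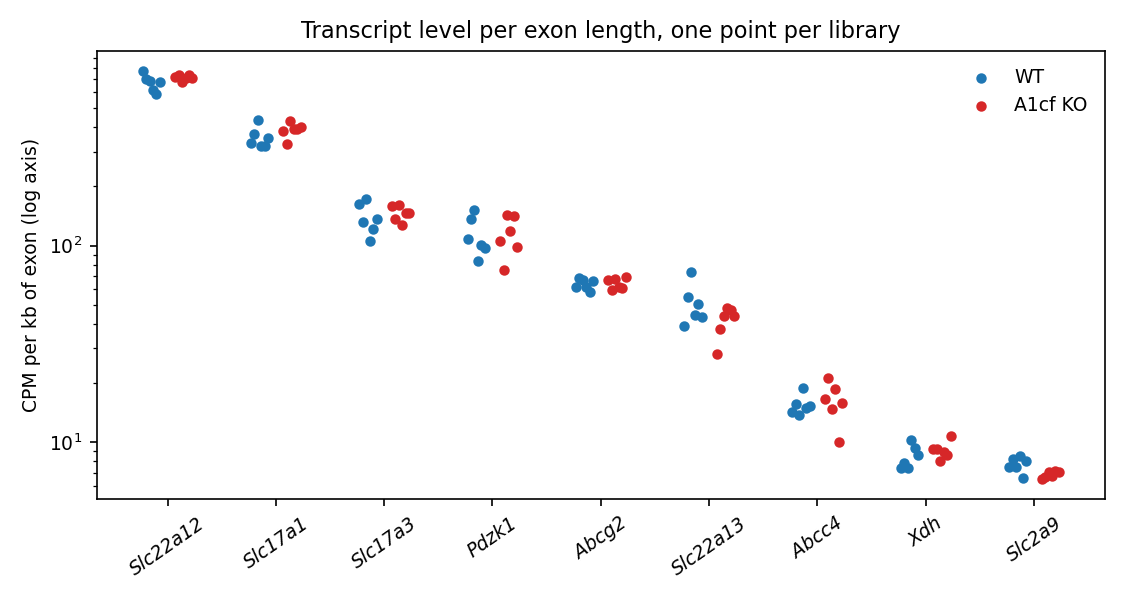
Level of each tested urate gene in CPM per kb of exon (y axis, logarithmic), with blue points for the 6 WT libraries and red points for the 6 of A1cf KO. The genes run from Slc22a12 at a mean of 695 CPM per kb down to Slc2a9 at 7.31, and the colours overlap for every gene.

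The counting limits the levels of a pair of members. The exons of Slc22a12 share 669 of 2250 bases with Nrxn2 on the other strand, and those of Pdzk1 share 1482 of 3556 bases with genes on the other strand, chiefly Gpr89 (1333 bases). The command in the file header sets neither strand nor overlap options, and featureCounts by default leaves out reads that fall on exons of more than 1 gene. Over the exon bases outside the overlaps, the level was 989 CPM per kb for Slc22a12 and 194 CPM per kb for Pdzk1, which would put Pdzk1 above Slc17a3.

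The members with the highest level and with almost no reads, Slc22a12 and Uox, are shown here by the 250 bases before their annotated start (RefSeq, GRCm38.p6), since the level is where the members differ most. The sequences are written 5′ to 3′ on the strand of the gene:

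Slc22a12 (chr19:6543071-6543320, minus strand): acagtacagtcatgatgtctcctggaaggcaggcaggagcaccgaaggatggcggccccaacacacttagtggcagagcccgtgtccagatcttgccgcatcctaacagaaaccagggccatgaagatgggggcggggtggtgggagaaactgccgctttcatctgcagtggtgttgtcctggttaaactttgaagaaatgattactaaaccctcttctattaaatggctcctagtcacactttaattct

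Uox (chr3:146596899-146597148, plus strand): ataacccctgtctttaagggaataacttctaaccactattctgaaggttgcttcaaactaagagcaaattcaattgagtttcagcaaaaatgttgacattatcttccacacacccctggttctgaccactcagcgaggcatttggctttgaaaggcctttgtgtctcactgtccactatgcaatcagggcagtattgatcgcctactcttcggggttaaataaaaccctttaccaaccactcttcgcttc

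RefSeq windows were found for 9 of the 10 members, 14 windows in all, and Xdh is named only. The windows were searched on both strands for a core of HNF4A (CAAAGTCCA), a transcription factor of proximal tubule and liver. A half-site of the transcription factor HNF1 (GTTAAT) was searched in the same way. Capitals would mark a match, and 0 of the 14 windows held either motif. Among all 32851 windows of this length, 0.384% held CAAAGTCCA and 6.43% held GTTAAT. The absence says only that these letters are not in these windows.

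Between genotypes, no urate gene passed the threshold of an adjusted p under 0.05 in the edgeR quasi-likelihood test, where 0.0473% of the 16910 genes tested passed. At an unadjusted p under 0.05 there was 1 of 9 (Slc2a9), beside 10.4% of all genes, so the count is near the background. DESeq2 called 0 of 9, beside 1.01% of all genes. In no member were the genotypes without overlap, beside 0.84% of all genes. The log2 fold changes ran from -0.29 to 0.12, with a median of 0.06 over the 9 members and of -0.0030 over all genes tested. The fold change was above 0 for 7 of 9 members and for 49.2% of all genes.

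**Figure D2:**
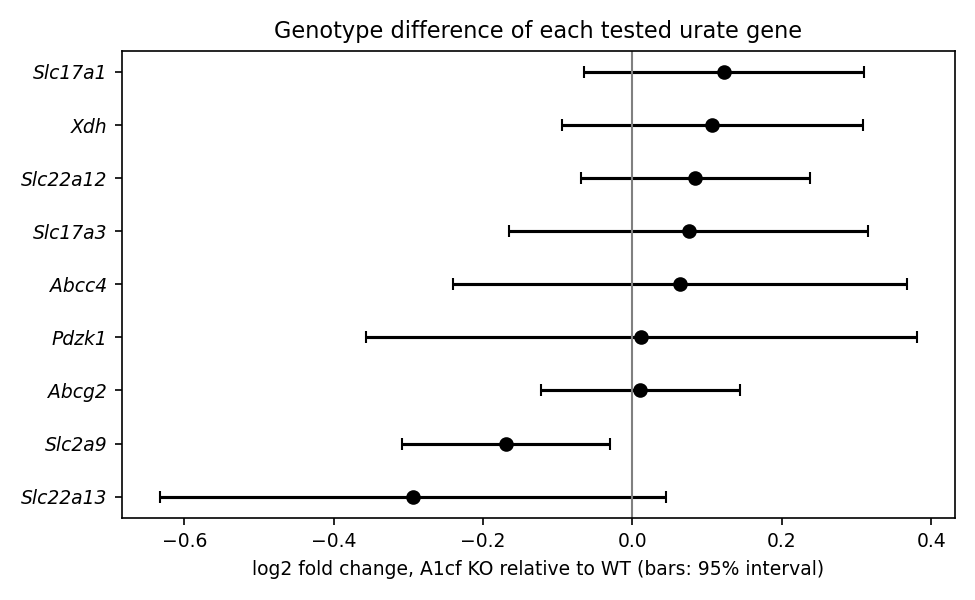
Log2 fold change of each tested urate gene in A1cf KO relative to WT (x axis), with bars for the 95% interval on 10 residual degrees of freedom, not adjusted for the number of genes. The values run from -0.29 for Slc22a13 to 0.12 for Slc17a1, and the bar of Slc2a9 alone lies on one side of 0.

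Positions below are those of the count table (mm10). Of the genes for reabsorption, Slc22a12 (chromosome 19, 6535845 to 6543019, minus strand) had a narrower spread in A1cf KO than in WT. Its level was 1327 to 1732 CPM in WT (median 1536) and 1526 to 1657 CPM in A1cf KO (median 1609.5). All 6 A1cf KO libraries lay within the WT range and above the WT mean. The means were 1518 ± 144 and 1609 ± 47.2 CPM (SD, n = 6 each), a log2 fold change of 0.08 (SE 0.069, edgeR adjusted p = 0.70). The 95% interval of the fold change ran from 0.953 to 1.18. The 3 WT animals of the series 776 to 778 stood lower, at 1327 to 1531 CPM, than the 3 of 573 to 601, at 1541 to 1732 CPM. Within animals 573 to 602 the log2 fold change was -0.0099 (SE 0.074).

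Slc2a9 (chromosome 5, 38349273 to 38503143, minus strand), which encodes the carrier through which urate leaves the tubule cell towards the blood, was the member with the smallest p. It was at 33.6 to 43.4 CPM in WT (median 39.6) and at 33.1 to 36.5 CPM in A1cf KO (median 35.1). All 6 A1cf KO libraries were below the WT mean and below the WT median, and WT 777 lay among them at 33.6 CPM. The means were 39.3 ± 3.52 and 34.96 ± 1.39 CPM (n = 6 each), so the A1cf KO mean was 88.9% of the WT mean. The log2 fold change was -0.17 (SE 0.062, unadjusted p = 0.016 by edgeR, adjusted p = 0.38). Within animals 573 to 602 the genotypes did not overlap, at 37.9 to 41.9 CPM in WT and 33.1 to 36.5 CPM in A1cf KO, where 5.67% of all genes did not overlap. The log2 fold change there was -0.18 (SE 0.065, adjusted p = 0.61 by edgeR). A1cf KO 780 was at 35.9 CPM, inside the 33.6 to 43.4 CPM of the WT animals of its series. Over 20 alternative settings the log2 fold change ran from -0.21 to -0.14 and the adjusted p from 0.25 to 0.61.

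Slc22a13 (chromosome 9, 119193002 to 119209105, minus strand) encodes OAT10, an apical exchanger of urate and other organic anions. It was at 77.4 to 146 CPM in WT (median 94.1) and at 55.9 to 95.6 CPM in A1cf KO (median 87.2). All 6 A1cf KO libraries were below the WT mean, which WT 601 raised with the highest value. A1cf KO 574 and 584 lay below every WT library. The means were 101 ± 24.6 and 82.3 ± 14.8 CPM, a log2 fold change of -0.29 (SE 0.15, edgeR adjusted p = 0.52, 95% interval of the fold change 0.645 to 1.03). Without WT 601 the log2 fold change of Slc22a13 was -0.16 (unadjusted p = 0.23 by edgeR), and without WT 573, the lowest WT library, it was -0.36 (unadjusted p = 0.032, adjusted p = 0.39). The value within animals 573 to 602 was -0.44 (SE 0.20, unadjusted p = 0.050 by edgeR, adjusted p = 0.67).

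No export gene passed the threshold, and each had genotype ranges that overlapped. Abcg2 (chromosome 6, 58584523 to 58695676, plus strand), an ATP-driven pump that exports urate into the urine and the gut, had the smallest spread in WT, with a coefficient of variation of 6.07% in WT and 6.09% in A1cf KO. Its level was 473 to 557 CPM in WT (median 521) and 484 to 562 CPM in A1cf KO (median 525). Of the A1cf KO libraries, 5 of 6 A1cf KO libraries lay inside the WT range. The log2 fold change was 0.01 (SE 0.060, edgeR adjusted p = 0.97), and the interval of the fold change was 0.918 to 1.11. For Abcg2 within animals 573 to 602 the log2 fold change was -0.053 (SE 0.072).

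Abcc4 (chromosome 14, 118482692 to 118706219, minus strand) encodes MRP4, another ATP-driven pump of organic anions and urate. It was at 78.9 to 108 CPM in WT (median 86.9) and 57.7 to 121 CPM in A1cf KO (median 92.7). Its coefficient of variation was 11.5% in WT and 23.2% in A1cf KO, where A1cf KO 602 was lower and A1cf KO 584 higher than every WT library. The log2 fold change was 0.06 (SE 0.14, edgeR adjusted p = 0.90, interval of the fold change 0.846 to 1.29). For Abcc4 within animals 573 to 602 it was 0.16 (SE 0.19).

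Slc17a1 and Slc17a3 encode NPT1 and NPT4, voltage-driven carriers that move urate and other anions out of the proximal tubule cell. Slc17a1 was at 759.5 to 1030.3 CPM in WT (median 813) and 783 to 1018 CPM in A1cf KO (median 924). Of the A1cf KO libraries, 5 of 6 were above the WT mean and all 6 within the WT range (log2 fold change 0.12, SE 0.084, edgeR adjusted p = 0.64). Slc17a3 was at 462 to 753 CPM in WT (median 585) and 557 to 701 CPM in A1cf KO (median 637), with all 6 A1cf KO libraries within the WT range (log2 fold change 0.08, SE 0.11, edgeR adjusted p = 0.85). The intervals of the fold change were 0.956 to 1.24 for Slc17a1 and 0.892 to 1.24 for Slc17a3. Both stood lower on average in WT 776 to 778 than in WT 573 to 601, with means of 785 and 899 CPM for Slc17a1 and of 528 and 681 CPM for Slc17a3. The log2 fold change within animals 573 to 602 was 0.02 (SE 0.10) for Slc17a1 and -0.097 (SE 0.11) for Slc17a3. Without WT 601 that of Slc17a1 was 0.19 (unadjusted p = 0.022 by edgeR, adjusted p = 0.46).

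The mean balance between this pair was also close in the 2 genotypes over all 12 libraries. The log2 ratio of Slc17a3 to Slc17a1 per kb was -1.37 ± 0.19 for WT against -1.40 ± 0.13 for A1cf KO (n = 6 each, exact two-sided permutation p = 0.74, where the smallest possible p is 0.0022). It ran from -1.60 to -1.03 in WT, with WT 573 highest, and from -1.61 to -1.26 in A1cf KO.

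The 2 genes lie in 1 cluster of SLC17 genes on chromosome 13 (mm10, 108 kb), whose outer members had few reads. In order they are Slc17a2 (23806993 to 23825180), Slc17a3 (23839434 to 23860714), Slc17a1 (23867750 to 23895730) and Slc17a4 (23897738 to 23915007), with Slc17a4 alone on the minus strand. The mean level over 12 libraries was 0.058 CPM per kb for Slc17a2 and 1.18 CPM per kb for Slc17a4, against 142 and 371 CPM per kb for the inner pair. The gap between the last exon of Slc17a1 and Slc17a4 is 2007 bases. Slc17a2 and Slc17a4 were picked out once their levels were known.

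Pdzk1 (chromosome 3, 96829284 to 96870926, plus strand) encodes a scaffold with PDZ domains that binds the tails of apical transporters, among them URAT1. It had a wide spread in both genotypes, with a coefficient of variation of 22.9% in WT and 23.0% in A1cf KO. Its level was 296 to 539 CPM in WT (median 372) and 268 to 508 CPM in A1cf KO (median 399). The means, 402 ± 92.1 and 405 ± 93.2 CPM, were close beside this spread (log2 fold change 0.01, SE 0.17, edgeR adjusted p = 0.99), and the interval of the fold change was 0.781 to 1.30. WT animals 776 to 778 were at 296 to 359 CPM and WT 573 to 601 at 384 to 539 CPM. Within animals 573 to 602 the log2 fold change was -0.18 (SE 0.19).

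**Figure D3:**
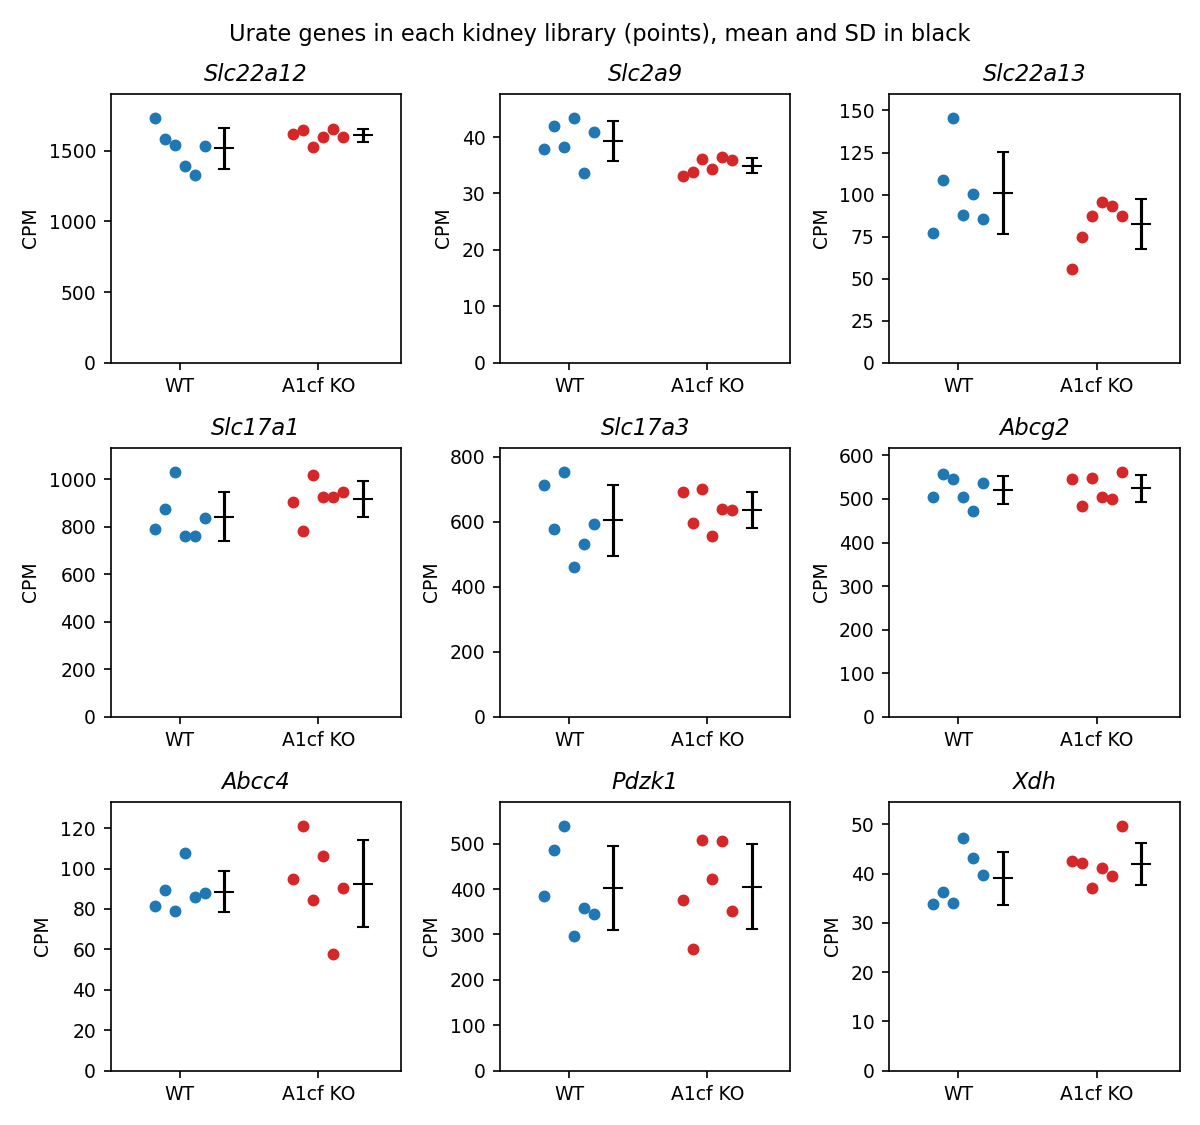
CPM (y axis, from 0) of the 9 tested urate genes by library, with blue points for the 6 WT and red points for the 6 A1cf KO animals, with a black mark and bar for mean and SD. All 9 genes have overlapping genotypes. Slc2a9 and Slc22a13 have all 6 A1cf KO libraries below the WT mean, and Slc22a12 has all 6 above it.

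Xdh (chromosome 17, 73883908 to 73950182, minus strand), the enzyme that makes urate, was at 33.9 to 47.3 CPM in WT (median 37.9) and 37.1 to 49.7 CPM in A1cf KO (median 41.7). Of the A1cf KO libraries, 5 of 6 were above the WT mean. The means were 39.0 ± 5.35 and 42.0 ± 4.26 CPM (log2 fold change 0.11, SE 0.090, edgeR adjusted p = 0.71, interval of the fold change 0.937 to 1.24).

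The WT animals differed by series for this gene. Xdh was at 33.9 to 36.2 CPM in WT 573 to 601 and at 39.6 to 47.3 CPM in WT 776 to 778. Within animals 573 to 602 all 5 A1cf KO libraries (37.1 to 42.6 CPM) were above the 3 WT libraries, where 5.67% of all genes did not overlap. The log2 fold change there was 0.22 (SE 0.069, adjusted p = 0.54 by edgeR). A1cf KO 780, at 49.7 CPM, was above the 3 WT libraries of its series. With a covariate for the series the log2 fold change was 0.21 (SE 0.059, unadjusted p = 0.0026 by edgeR), and it did not pass over all genes (adjusted p = 0.17). At that unadjusted threshold 2 of 9 members (Slc2a9 and Xdh) and 12.9% of all genes were counted with the covariate. Within animals 573 to 602 alone the same 2 members were counted, beside 7.5% of all genes.

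**Figure D4:**
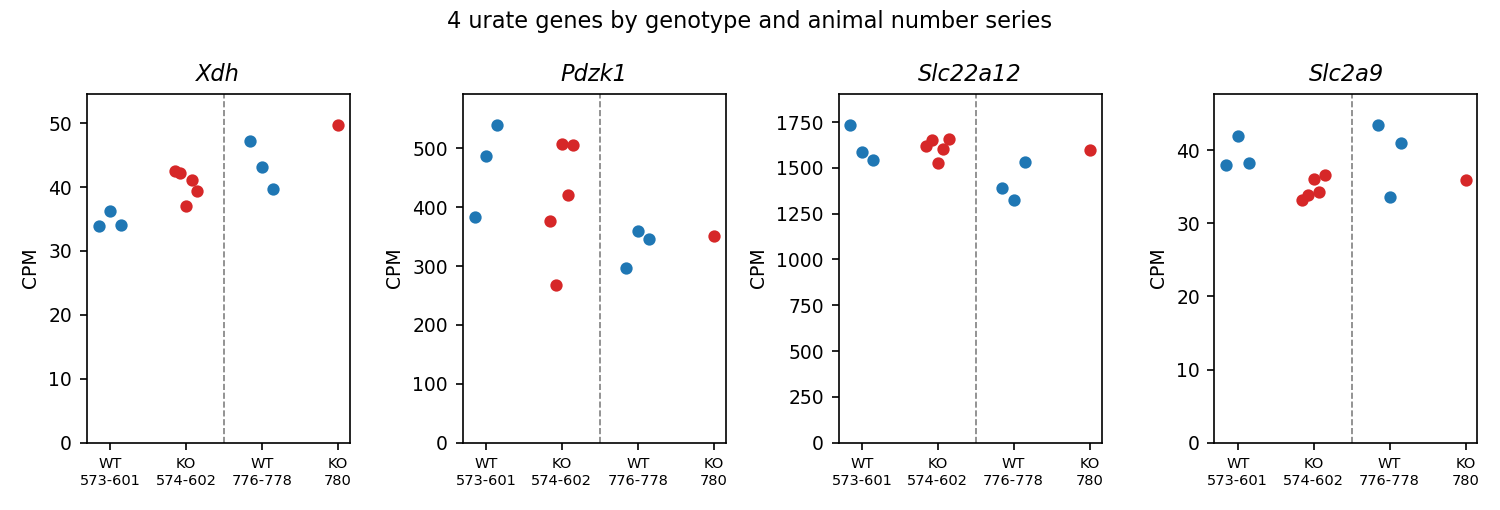
CPM (y axis, from 0) of Xdh, Pdzk1, Slc22a12 and Slc2a9 by genotype and animal number series, with 1 point per library and a dashed line between the series. Xdh is higher in A1cf KO than in WT within each series, whereas Pdzk1 and Slc22a12 are lower in WT 776 to 778 than in WT 573 to 601.

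Uox (chromosome 3, 146570426 to 146632305, plus strand), which encodes uricase, had 4 counts among all 12 libraries, 2 each in WT 776 and WT 778. The A1cf KO libraries had 0 counts, which allows at most 0.0561 to 0.102 CPM per library (3 counts, for counting error only). Both genotypes were at or under this floor, so no fold change is given and the ratio of Xdh to Uox was not computed. Of the enzymes that follow uricase, Urad and Allc had 0 counts in all libraries. Urah, which acts on the product of uricase, ran from 1.18 to 3.36 CPM over WT and from 0.96 to 4.19 CPM over A1cf KO (log2 fold change 0.04, edgeR adjusted p = 0.97). Of 12 hepatocyte markers, 7 were tested, and 2 were lower at an unadjusted p under 0.05 by edgeR, beside 5.28% of all genes. By edgeR 0 passed, and DESeq2 called 1, beside 1.01% of all genes. Of the 12, 6 were under a mean of 1 CPM, and their summed level was 52.4 to 166 CPM in WT and 44.7 to 138 CPM in A1cf KO.

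Among other transporters of organic anions and urate in the tubule, 16 of 16 were tested and 0 passed, with 3 higher and 2 lower at an unadjusted p under 0.05 by edgeR and 0 called by DESeq2. Background shares at that unadjusted p were 5.07% of genes higher and 5.28% lower. The median log2 fold change of the list was -0.02. Slc22a6 (OAT1), the basolateral entry step of organic anions, averaged 1172 ± 116 CPM over WT and 1373 ± 97.3 CPM over A1cf KO (adjusted p = 0.35). Slc22a8 (OAT3), a second basolateral anion exchanger, was at 846 ± 127 and 652 ± 152 CPM (adjusted p = 0.40). Slc22a30 was at 163 ± 30.5 and 204 ± 28.3 CPM (adjusted p = 0.38), and Slc22a29 at 1.71 ± 0.71 and 0.86 ± 0.32 CPM (adjusted p = 0.31). The genotypes overlapped for each of the 4 genes.

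Transporters that supply counter-anions to URAT1 and scaffolds of the brush border were tested for 7 of 7 genes, and 0 passed. DESeq2 called 0, and the median log2 fold change was 0.04. At an unadjusted p under 0.05 by edgeR 1 gene was higher, beside 5.07% of all genes. That gene was Slc5a8, a sodium-coupled monocarboxylate transporter, which averaged 283 ± 32.3 CPM over WT and 337 ± 34.96 CPM over A1cf KO (adjusted p = 0.35).

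The purine pathway ahead of Xdh held 12 of 13 tested genes of breakdown and salvage, and 13 of 13 of synthesis. In both lists 0 passed by edgeR and 0 by DESeq2. Each held 1 gene at an unadjusted p under 0.05 by edgeR, beside 10.4% of all genes. Gda, guanine deaminase, which makes xanthine, averaged 13.1 ± 2.56 CPM over WT and 16.4 ± 1.92 CPM over A1cf KO (adjusted p = 0.38). Prps2, which makes the ribose phosphate donor of purine synthesis, was at 57.4 ± 3.93 and 52.2 ± 2.10 CPM (adjusted p = 0.39). The median log2 fold changes were 0.05 and -0.04. Genes for the molybdenum cofactor that Xdh needs and for other molybdoenzymes were tested for 8 of 9, with 0 past the threshold, 0 at an unadjusted p under 0.05 by edgeR and 0 called by DESeq2. The most abundant of them were Suox, sulfite oxidase (106 ± 6.69 and 102 ± 9.19 CPM), and Mocs2, a subunit of molybdopterin synthase (91.1 ± 5.47 and 96.7 ± 9.12 CPM).

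Markers of other cells were read beside the members. Of all genes tested, 5.28% were lower and 5.07% higher at an unadjusted p under 0.05 by edgeR. DESeq2 called 1.01%. All 8 loop of Henle markers tested were lower in A1cf KO at an unadjusted p under 0.05, with 0 past the edgeR threshold and 4 called by DESeq2, and their summed level ran from 4972 to 7261 CPM over WT and from 3774 to 4784 CPM over A1cf KO. The most abundant of them, Umod (uromodulin, the main protein of normal urine), averaged 3084 ± 326 CPM over WT and 2218 ± 213 CPM over A1cf KO (edgeR adjusted p = 0.11). A list of 11 genes known for male-biased kidney levels held 5 that were higher at the same unadjusted p and 0 past the edgeR threshold (1 called by DESeq2). Their sum was 31092 to 43019 CPM in WT and 33478 to 50087 CPM in A1cf KO. The log2 fold change was above 0 for 10 of the 11, beside 49.2% of all genes. The sex of the animals is not given here, and its part in these values was not tested. Endothelial markers held 0 of 8 at an unadjusted p under 0.05 by edgeR and 0 called by DESeq2. They summed to 209 to 434 CPM in WT and 249 to 413 CPM in A1cf KO. The fat cell markers summed to 87.8 to 396 CPM in WT and 76.1 to 548 CPM in A1cf KO, and 6 of 7 adrenal cortex markers were under a mean of 1 CPM. The part of these cells in the values of the members was not tested.

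Variation among libraries was shared by some members and not by others. The genotype means of log2 CPM were subtracted first. Over the 12 libraries, 21 of 36 pairs of members then had a Pearson r above 0 and 15 below 0. No share over all pairs of genes was computed. The value was highest for Slc17a1 and Pdzk1 at 0.84. Abcg2 and Slc17a1 followed at 0.71, Slc17a1 and Slc22a13 at 0.64, and Slc17a1 and Slc17a3 at 0.62. Xdh ran the other way, at -0.74 with Slc17a3 and -0.70 with Pdzk1, as did Abcc4 with Pdzk1 at -0.70. These values describe 12 libraries and carry no test, since all genes of a library share its depth and scaling. The animal number series was not subtracted, and WT 776 to 778 were higher on average for Xdh (43.3 against 34.7 CPM) and lower for Pdzk1 (334 against 470 CPM) and Slc17a3 than WT 573 to 601. The part of the series in these correlations was not tested.

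The gene most like each member across the 12 libraries was found by the same measure. The search covered 10424 genes with a mean of at least 5 CPM, leaving out Rik symbols and symbols of Gm plus digits. For Pdzk1 it was Anpep, a brush border aminopeptidase (r = 0.98), for Xdh Crispld2 (0.97) and for Abcc4 Fam20a (0.95). For Slc17a3 it was Ctbs (0.94), for Slc17a1 Mdh1, the cytosolic malate dehydrogenase (0.93), and for Slc22a13 Gltp (0.93). Slc2a9 was most like Cwc15 (0.92), Abcg2 most like Peo1 (0.91) and Slc22a12 most like Tor1a (0.89). Each of these is the highest of 10424 values, given as a description.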

How the data were processed

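RNA-seq reads of 12 whole-kidney libraries had been counted per gene name by the authors, and the deposited values are raw counts without normalization. Per the file headers, the authors used featureCounts 1.5.0-p2 over exons with GENCODE M8, on alignment files whose names mark them as trimmed, merged and duplicate-marked, with no strand, pair or duplicate option. STAR, DESeq2 and mm10 are named per the submitters' processing notes, without versions. Exon length in bases is another column of the deposited table, as the authors' counter wrote it; it has no score or unit beyond bases.

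The fit used edgeR 4.0.16 under R 4.3.3, with filterByExpr by genotype (16910 genes), TMM scaling and the quasi-likelihood F test, with Benjamini-Hochberg adjustment over all genes tested and a threshold of 0.05. SE is the log2 fold change divided by the root of F. CPM uses TMM-scaled totals, and log2 CPM a prior count of 2. Alternatives were DESeq2 size factors, no filter, a stricter filter (1 CPM in 6 libraries), the DESeq2 1.42.0 Wald test, voom in limma 3.58.1, a covariate for the animal number series, only animals numbered under 700, no mitochondrially encoded genes, and leaving out each library. Shares called by DESeq2 are of all 16910 genes, including those that it left without an adjusted p. The main edgeR fit was tested on simulated data, and the alternatives were not.

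Genes named are A1cf, the 10 members, up to 4 genes per list at an unadjusted p under 0.05 by edgeR or otherwise up to 2 of the most abundant, and the gene most like each member. A list of transcription factors is not reported here. The members and lists were chosen with earlier results of these data known. The series calls the libraries biological replicates. Uox had too few reads for the planned ratio to Xdh.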

Additional observations from a re-analysis of the deposited data

Results flagged for a closer look

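Abcc4 in WT 776 was at 108 CPM, far from the other 5 WT libraries (78.9 to 89.3 CPM). WT 776 was also the library with the fewest counts (26671705). Among 21 groups of 6 libraries examined in this way, 1 held such a value, where chance alone gives about 5% of groups.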

How the results depend on the processing

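In 20 alternatives for each of the 9 members, 0 of 180 fits put a member past the threshold. DESeq2 called 170 genes and the series covariate 24, against 8 in the edgeR test, and leaving out 1 library gave 6 (without WT 601) to 12 (without WT 590). The number of members at an unadjusted p under 0.05 was 2 in place of 1 without a filter (Slc2a9, Slc22a13), with the series covariate and within animals numbered under 700 (Slc2a9, Xdh), and it was 1 to 2 across the fits without 1 library (2 without WT 573, with Slc22a13 added, or without WT 601, with Slc17a1 added). The log2 fold changes of Slc2a9, Slc22a13, Slc17a1 and Xdh kept their sign in all 20 alternatives. Within animals numbered under 700, signs turned for Slc22a12 (-0.0099), Abcg2 (-0.053), Slc17a3 (-0.097) and Pdzk1 (-0.18, and -0.10 with the series covariate), and the members' median was -0.053. Leaving out 1 library gave log2 fold changes from 0.049 (without WT 777) to 0.13 for Slc22a12, from 0.0088 (without WT 776) to 0.15 (without WT 601) for Slc17a3, from 0.090 to 0.19 (without WT 601) for Slc17a1, from 0.054 (without A1cf KO 780) to 0.17 (without WT 776) for Xdh, from -0.36 (without WT 573) to -0.16 (without WT 601) for Slc22a13, from -0.21 to -0.14 for Slc2a9, from -0.013 to 0.033 for Abcg2, from -0.063 to 0.11 for Pdzk1, from -0.028 to 0.17 for Abcc4, and from -0.081 to 0.032 for the log2 ratio of Slc17a3 to Slc17a1. The cause of these changes was not tested. No paired analysis was run because the labels name no pairs of animals, such as littermates, between genotypes. Totals of 26671705 counts or more make depth a limit for Uox alone among the members.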
